A study of Homo sapiens with 16 samples.

Results

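The inflammatory cytokines Tnf, Il6 and Il10, the interleukin-12 family subunits Il12a, Il12b, Il23a, Il27 and Ebi3, and the Il6 relatives Osm and Lif were followed through all cell types captured from mouse mammary tumors. These 10 genes were chosen by name from the 32285 genes of the count matrices, of which 24803 had at least 1 unique molecular identifier (UMI, 1 captured RNA molecule), and all 10 had UMIs. The tumors were LPA1-T22 (T22) and LPA1-T127 (T127), each a single transplantable line derived from transgenic mice with the LPA1 receptor expressed in the mammary epithelium, T22 sensitive and T127 resistant to inhibitors of poly (ADP-ribose) polymerase (PARPi). Chunks of 25 mm3 were placed in the mammary fat pad of immunocompetent female FVB mice aged 6 weeks, and in mice with a single model treatment began 14 days after transplantation for T22 and 10 days for T127. Mice received vehicle or the PARPi olaparib by mouth daily at 50 mg/kg for 4 or 8 days (short-term) or for 20 days (long-term). In the long-term experiment a mouse carried either the same tumor on both sides (single strain) or T22 and T127 on opposite sides (co-transplantation), with T22 placed 14 days before T127.

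The 16 single-cell libraries were pools of tagged tumors, 4 short-term T22 pools, 4 short-term T127 pools and 8 long-term pools that mixed both tumors. The pools are described as mixing vehicle and olaparib tumors, the days of treatment and, in the long-term experiment, both transplantation schemes. Malignant labels of both tumor models were in each long-term pool. The tag of a cell was not available here, so no comparison of treatments or of transplantation schemes was made. Pools are thus captures of mixed tumors rather than mice, and whether pools of an experiment held the same tumors is not stated. Their spread is therefore given as a range without a claim on what it measures. No p-value was computed, and each short-term model counts as 1 sample.

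Pools held 34755906 to 55600377 UMIs each, and the median cell held 3105 to 11712 UMIs in long-term pools, 7730 to 8528 in short-term T22 pools and 22712 to 26017 in short-term T127 pools. Long-term pools 1 and 2 shared 3939 cell barcodes, pools 1 and 3 shared 987 and pools 2 and 3 shared 1082, against 0 to 11 in the other 117 pairs of pools, so each barcode was kept once at its deepest copy, which left 25723 of 30845 long-term cells beside 15094 short-term T22 and 8007 short-term T127 cells. The 22 deposited labels mostly carried their own markers: in long-term pools the summed level of the B cells list was 3394 counts per 1000000 UMIs (CPM) in B.cells and that of the NK list 3762 in NK.cells. Some labels carried markers of cells that no label names. CD14-IL1B held 186 CPM of Xcr1, a marker of conventional dendritic cells, and 992 CPM of Epcam with only 14.2 CPM of the macrophage gene Adgre1. CD14-PF4 held 394 CPM of Ccr7 and 439 CPM of Fscn1, both markers of mature dendritic cells. The fibroblasts list reached 8885 CPM in the malignant label Malign_2 against 12675 in i_CAF, and Epcam was at 3.30 CPM in Malign_0, 5.87 in Malign_1, 922 in Malign_2 and 2780 in Malign_3. The labels were made from the genes of these same cells, and Tnf and Il6 were among the genes plotted when they were named, so levels by label are a description.

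Tumor necrosis factor, the product of Tnf, drives inflammation through the receptors Tnfrsf1a and Tnfrsf1b. Il6, Osm and Lif each signal through the shared receptor chain Il6st joined to a partner, and are known for acute phase, stromal and progenitor responses. Interleukin-10 dampens macrophage and dendritic cell activation through Il10ra and Il10rb. The interleukin-12 family works as pairs of subunits from separate genes: Il12a with Il12b forms interleukin-12, Il23a with Il12b forms interleukin-23, Il27 with Ebi3 forms interleukin-27 and Il12a with Ebi3 forms interleukin-35, so the location of each subunit matters. In tumors, macrophages and dendritic cells are known as main sources of most of them, and fibroblasts of Il6.

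Levels are UMIs of a gene per 1000000 UMIs of the cells with a label, given with an exact Poisson interval at the 95% level that covers counting error only, and with the values of the pools. Levels compare cell types within a gene, never genes with each other. Labels named for monocytes and macrophages (CD14-IL1B, CD14-PF4, CD16-CDKN1C, Macro-M1, Macro-M2, Macro-MKI67 and Macro-others, the first 2 with dendritic cell markers) held 46.8% of all long-term UMIs but 98.1% of the UMIs of Osm, 98.6% of Il12b, 96.5% of Il27, 96.4% of Ebi3 and 94.6% of Il10. Il6 was divided between these labels with 49.5% and fibroblast labels with 47.3%, although fibroblasts held only 3.72% of all UMIs. Malignant labels held 45.8% of all long-term UMIs and 26.4% of the Tnf, 47% of the Lif and 28.5% of the Il23a UMIs, so Tnf and Il23a lay under and Lif near the malignant share of all genes. Il12a was too rare for a firm division, with 46 UMIs in 42 long-term cells, 21 UMIs in 13 T22 cells and 65 UMIs in 42 T127 cells.

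**Figure D1:**
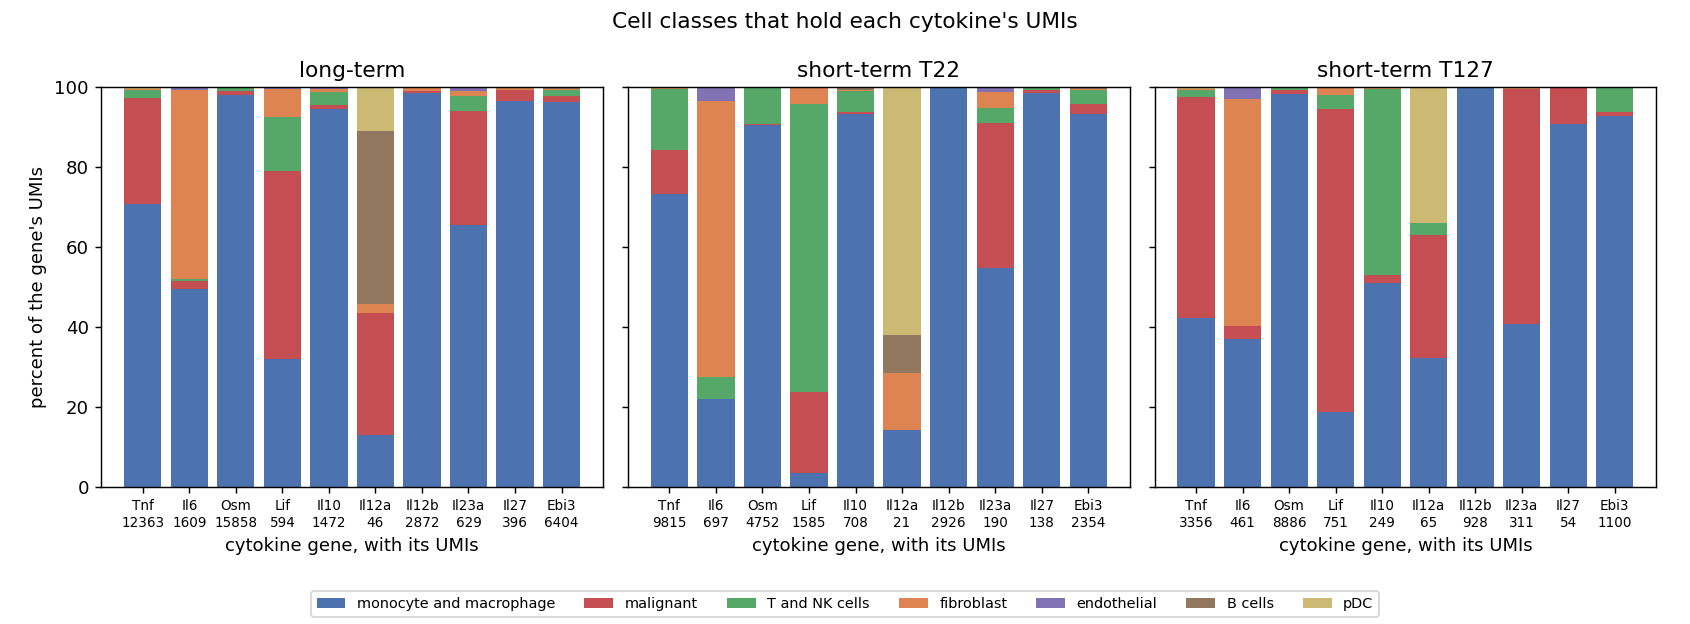
Share of each cytokine gene's UMIs (percent, stacked bars) held by each class of deposited labels in the long-term, short-term T22 and short-term T127 pools. Over 90% of the Osm, Il12b, Il27 and Ebi3 UMIs lie in labels named for monocytes and macrophages in each experiment, a class that includes CD14-IL1B and CD14-PF4 with their dendritic cell markers. Il6 lies in fibroblast and macrophage labels, and the malignant portions of Tnf, Lif and Il23a in T127, 55.4%, 75.9% and 58.8%, lie under the 84.1% of all UMIs there.

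**Figure D2:**
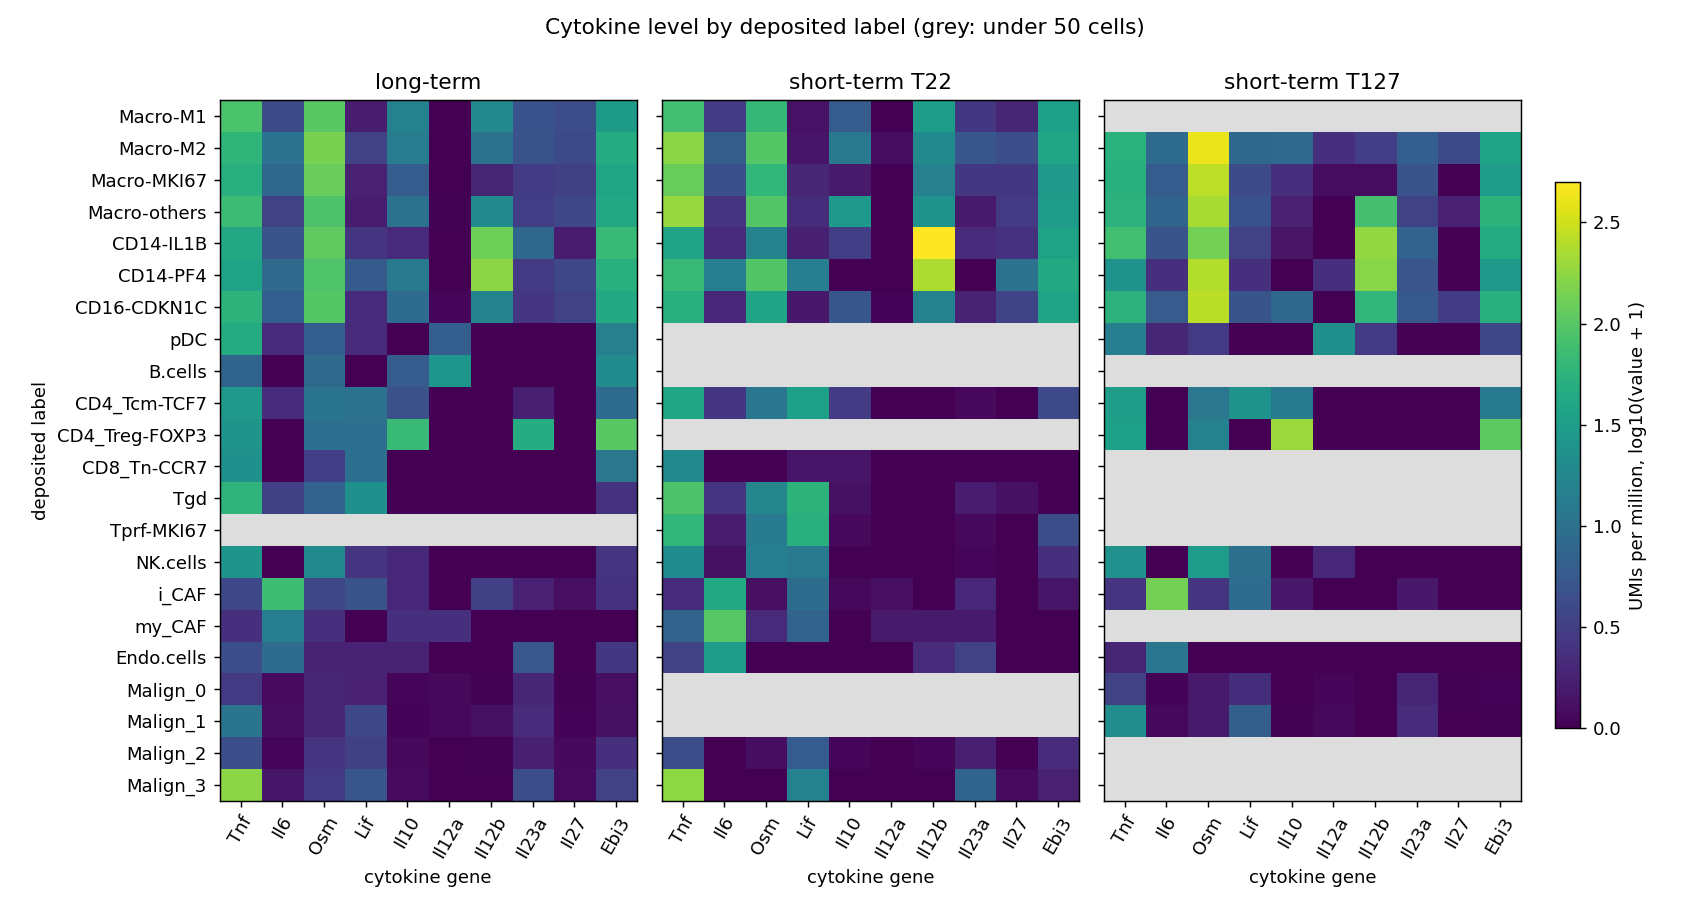
Level of each of the 10 genes (columns) in each deposited label (rows), as log10 of CPM plus 1, for the 3 experiments side by side, with labels under 50 cells in grey. Tnf stands out in Malign_3 (170 CPM in long-term pools), Il6 in i_CAF (70.9), Il10 and Ebi3 in CD4_Treg-FOXP3 (65.7 and 101) and Il12b in CD14-IL1B and CD14-PF4 (126 and 168).

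Tnf was broad. In long-term pools 4614 cells, 17.9% of all, had a Tnf UMI, and the shares were 17.6% in T22 and 18.1% in T127. These shares over all labels were not thinned. The median cell held 7730 to 8528 UMIs in T22 pools and 22712 to 26017 in T127 pools. The highest long-term level was in a malignant label, Malign_3, the T22 tumor cells with high Epcam and keratins, at 170 CPM [164 to 176] with a lowest, median and highest pool of 134, 160 and 234. The next were Macro-M1 at 84.2 CPM with pools from 61.2 to 107, Macro-others at 69.9 with pools from 58.7 to 81.1, Macro-M2 at 57 with pools from 42.5 to 74, gamma-delta T cells (Tgd) at 55.9 with pools from 25.5 to 83.6 and CD16-CDKN1C monocytes at 55.3 with pools from 43.3 to 75.9. The pools of Malign_3 lay above those of Macro-M1, and from Macro-M1 down each label overlapped the next in the order. Leaving out the long-term pools 1 to 3 gave 152 CPM in Malign_3.

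Malign_3 alone of the malignant labels had this level of Tnf. Long-term levels were 9.95 CPM in Malign_1, 3.40 in Malign_2, the other T22 label, and 1.86 in Malign_0. A Tnf UMI was found in 60.4% of Malign_3 cells against 3.67% of Malign_0 cells, at median depths of 15056 and 19775 UMIs, and after thinning every cell to 3000 UMIs the shares were 29.7% and 0.748%. Endothelial cells had a Tnf UMI in 1.61% of cells at a median depth of 3426 UMIs, and in 1.43% after thinning. Free RNA was not measured. Macrophage genes were low in Malign_3: Adgre1 was at 1.14 CPM against 115 in Macro-M2, Csf1r at 6.72 against 533, and Cd68 at 11.3 against 725. Restricting Malign_3 to the 686 of 907 cells without a UMI of Itgam, Adgre1, Csf1r, Cd68 or Ptprc left Tnf at 171 CPM in 58.7% of cells.

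The short-term pools showed the same label high for Tnf in T22. The 4 T22 pools had 149, 248, 132 and 178 CPM in Malign_3, and 65.6% of its 218 cells had a UMI, or 33.5% after thinning. Without leukocyte UMIs, 186 of these cells had 157 CPM. In T22, Macro-others had 179, 199, 198 and 184 CPM in the 4 pools and Macro-M2 154, 167, 173 and 191, within the range of Malign_3, while Macro-MKI67 had 116 and Macro-M1 77.5. Lymphoid labels carried Tnf too, with 87.6 CPM in Tgd, 59.4 in proliferating T cells (Tprf-MKI67), 39.2 in CD4_Tcm-TCF7 and 19.2 in NK.cells, and T and NK cells held 15.4% of the T22 Tnf UMIs beside 22.5% of all UMIs.

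T127 had Tnf in macrophage and malignant labels. Macro-others and CD16-CDKN1C had 53.5 CPM each, Macro-M2 had 52.3 and Macro-MKI67 50.3. Monocyte and macrophage labels held 42.2% of the T127 Tnf UMIs against 12.6% of all UMIs. Malign_3 had no cells in T127, and malignant cells held 55.4% of the Tnf UMIs (48.9% to 61% over the pools), beside 84.1% of all UMIs. Of these, Malign_1 had 19.5, 20.7, 21 and 18.5 CPM in the 4 pools with a UMI in 25.8% of cells, or 5.16% after thinning, and Malign_0 had 2.41 CPM with 6.96% of cells, or 0.596% after thinning. Malign_1 was also the label high in immediate early genes, which rise during tissue dissociation among other stimuli: in T127 Fos was at 3074 CPM in Malign_1 and 169 in Malign_0, and in long-term pools Fos was at 6537 CPM in Malign_1, 275 in Malign_0 and 1567 in Malign_3. The part of dissociation in the Tnf level was not tested. The top T127 label, CD14-IL1B at 76.1 CPM, rested on few cells: its pools had 63, 2.04, 154 and 70.8 CPM, 1 cell held 85 of its 189 UMIs, and without that cell the level was 42.2.

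**Figure D3:**
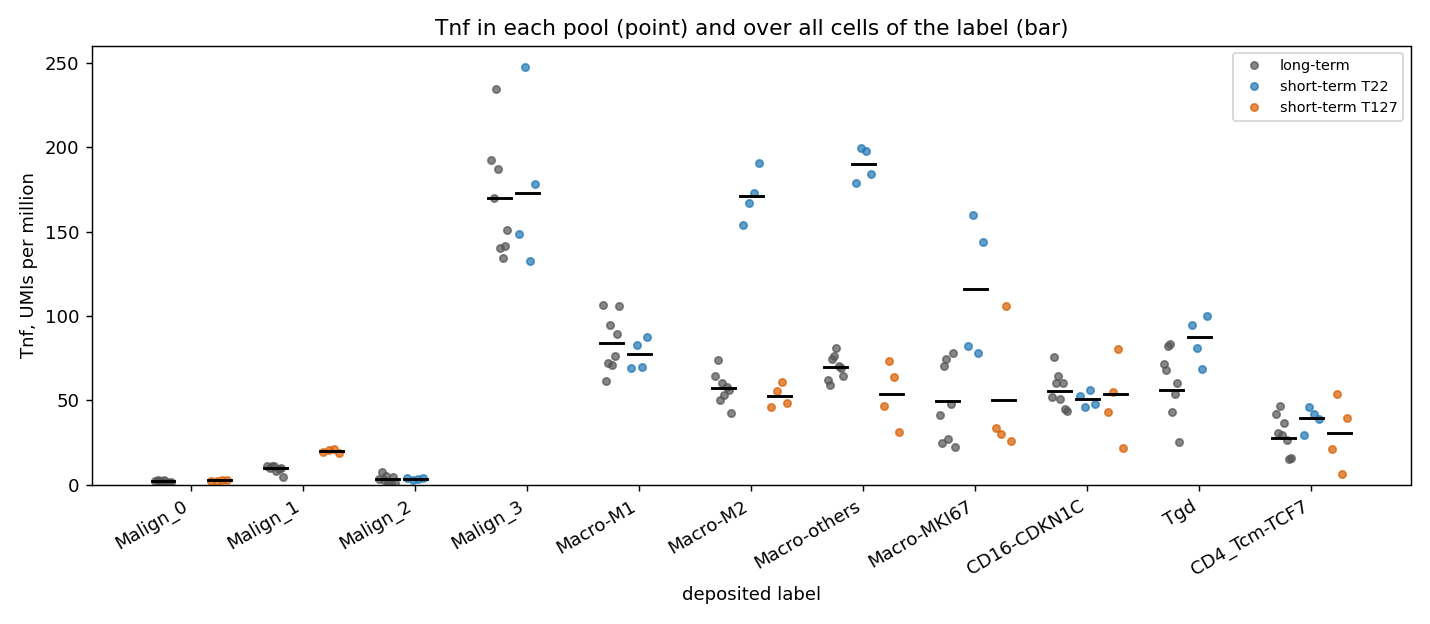
Tnf level (CPM, 1 point per pool with at least 10 cells) in the deposited labels of the long-term, short-term T22 and short-term T127 pools. Malign_3 lies above every other long-term label in the sum over pools (170 CPM), with Macro-M1 next at 84.2, and in T22 Macro-others (190), Malign_3 (173) and Macro-M2 (171) lie together.

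Il6, known as a product of fibroblasts and myeloid cells, was highest in the inflammatory cancer-associated fibroblast label (i_CAF) of long-term pools, at 70.9 CPM [65.9 to 76.2]. Its lowest, median and highest pool had 31.3, 54.7 and 156 CPM, and a UMI was found in 24.8% of cells, or 10.9% after thinning. The myofibroblast label my_CAF had 13.5 CPM with pools from 0 to 25.6, which did not overlap i_CAF. Macro-M2 had 9.77 CPM with pools from 5.63 to 19.3, yet through its number of cells held 24.9% of all Il6 UMIs. No Il6 UMI was found in 309 B cells, which allows a share of up to 0.971% of cells with a UMI and sets no limit on expression below 1 UMI at their median depth of 2082, and Malign_0 and Malign_2 had 13 and 3 UMIs in 2809 and 1352 cells.

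A few cells carried much of the short-term Il6. The 10 cells with the most Il6 UMIs held 41.9% of the T22 total and 52.7% of the T127 total, against 13.4% in long-term pools. Cells with an Il6 UMI numbered 168, 153 and 589 in that order, so 10 cells are a larger part of them in the short-term pools. In T22 my_CAF had 65.6, 87.9, 225 and 9.83 CPM in the 4 pools, a level of 99.8 that fell to 57.4 without pool 3, and i_CAF had 33, 66, 39.6 and 33.6 CPM. In T127 i_CAF had 181, 257, 47.9 and 55.4 CPM, and without the 1 cell that held 97 of its 260 UMIs its level was 86 instead of 135.

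Osm, which acts on stromal cells through Osmr and Il6st, was a gene of the myeloid labels as a whole. In long-term pools the level was 144 CPM [140 to 148] in Macro-M2 with a lowest, median and highest pool of 106, 137 and 218, and it was 119 in Macro-MKI67, 109 in CD14-IL1B, 100.5 in Macro-M1, 96 in CD16-CDKN1C, 90.3 in CD14-PF4 and 87.1 in Macro-others. Each of these overlapped the next in the order of labels. Below them came NK.cells with 18.1 CPM, CD4_Tcm-TCF7 with 10 and B.cells with 7.60, and the malignant labels had 0.956 to 1.90. A UMI was found in 45.2% of Macro-M2 cells, or 23.5% after thinning, against 1 of 249 endothelial cells.

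Osm in T127 macrophages reached 424, 397, 466 and 386 CPM in the 4 Macro-M2 pools, with a UMI in 82.1% of cells, or 56.1% after thinning. In T22 the same label had 78.7, 135, 65.2 and 99.9 CPM, with 40.9% of cells and 18.8% after thinning. Endothelial cells had no Osm UMI in 118 T127 cells and 88 T22 cells. T and NK cells held 8.92% of the T22 Osm UMIs, under their 22.5% of all UMIs, with NK.cells at 13.5, 12.6, 14.1 and 14.6 CPM.

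Lif, which sustains progenitor cells and signals through Lifr and Il6st, had most UMIs in malignant labels in long-term and T127 pools and in T and NK cells in T22. The mix of captured cells also differed between experiments. Summed over pools, T and NK cells were over their share of all UMIs in each, in T127 with pools from 0% to 11.9%. In long-term pools malignant labels held 47% of its UMIs, monocyte and macrophage labels 32% and T and NK cells 13.6%, the last against 2.77% of all UMIs. T and NK cells held 72.1% of its T22 UMIs (65.1% to 77.5% over the pools) against 22.5% of all UMIs, and malignant labels 20.3% against 31.8%. The T22 levels were highest in Tgd with 30, 60.2, 41 and 84 CPM in the 4 pools, Tprf-MKI67 with 46.2, 55.7, 34.7 and 65, and CD4_Tcm-TCF7 with 26, 39.2, 38.2 and 30.4. These 3 labels overlapped, and CD4_Tcm-TCF7 alone held 34.7% of the UMIs. Among T22 malignant labels, Malign_3 had 8.09, 20.6, 10.5 and 22.2 CPM and Malign_2 had 7.82, 3.48, 3.57 and 5.86, so the pools of Malign_3 lay above.

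In T127 malignant cells held 75.9% of the Lif UMIs (67.3% to 82.3%), under their 84.1% of all UMIs, and monocyte and macrophage labels held 18.6% against 12.6%. T and NK cells held 3.46% (0% to 11.9%) against 1.18%. The malignant levels were Malign_1 at 5.95, 4.85, 6.6 and 4.52 CPM and Malign_0 at 1.25 in sum. The CD4_Tcm-TCF7 level of 23.1 CPM in T127 rested on 1 cell with 10 of its 15 UMIs and on pool 4, and was 7.76 without that cell and 4.48 without that pool. In long-term pools Tgd had 21.9 CPM on 29 UMIs, 12.6 without pool 6, CD4_Tcm-TCF7 had 9.31 with pools from 3.36 to 14.7 and Malign_3 had 4.31 with pools from 0.972 to 7.81. Those last 2 ranges overlapped.

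Il10 had macrophages as its largest source and regulatory T cells as its highest label. In long-term pools Macro-M1 had 14.3 CPM with pools from 6.45 to 21.3, Macro-M2 had 12.8 with pools from 3.86 to 22.5, Macro-others had 9.10 with pools from 5.08 to 16.4 and CD16-CDKN1C had 7.79. The regulatory T cell label CD4_Treg-FOXP3 had 65.7 CPM [44.3 to 93.7], but on 30 UMIs in 11 of 113 cells, with pools from 0 to 182 and 40 CPM without pool 5. T127 held more Il10 in this label, 108 UMIs in 31 of 149 cells, with 106, 297, 226 and 241 CPM in the 4 pools and a level of 194 [159 to 235]. Through it, T and NK cells held 46.6% of the T127 Il10 UMIs (30.1% to 60.3%) with 1.18% of all UMIs. T22 had only 5 cells with this label.

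In T22 the Il10 UMIs lay in macrophages, and within them in Macro-others, with 23.2, 27.1, 22.9 and 36.7 CPM in the 4 pools and 55.5% of all T22 Il10 UMIs. They came from 70 of 1244 cells. Macro-M2 followed with 12.5, 16.4, 9.76 and 5.37 CPM, Macro-M1 with 1.33, 4.23, 4.78 and 10, so Macro-others lay above both.

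Il12b, the subunit shared by interleukin-12 and interleukin-23, came from few cells with many UMIs each. In long-term pools 1.20% of cells had an Il12b UMI, at 9.32 UMIs per positive cell. In T22 the values were 1.05% and 18.4, and in T127 0.612% and 18.9. The 10 highest of 308, 159 and 49 cells with a UMI held 28.3%, 44.3% and 55.6% of the UMIs. CD14-IL1B and CD14-PF4 had the highest levels throughout. CD14-IL1B had 126 CPM in long-term pools (lowest, median and highest pool 0, 111 and 384), 1017, 230, 218 and 582 CPM in the 4 T22 pools and 315, 132, 120 and 152 in the T127 pools. The T22 level of 500 CPM was 330.3 without pool 1. CD14-PF4 had 168 CPM in long-term pools, but 100.5 without pool 3 and 33.1 without pools 1 to 3, and its short-term pools ran from 0 to 881. No Il12b UMI was found in NK.cells or B.cells in any experiment, among 281 and 309 cells in long-term pools, 1193 and 38 in T22 and 141 and 42 in T127.

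Over 50% of the Il12b UMIs in each experiment lay in cells with markers of mature dendritic cells. Cells of the 7 myeloid labels that had both a Ccr7 UMI, the receptor that takes dendritic cells to lymph nodes, and a Fscn1 UMI, an actin bundler of mature dendritic cells, numbered 126 in long-term pools, 79 in T22 and 43 in T127. The T127 cells had an Il12b level of 2212 CPM against 0.884 in the other cells of these labels, and held 97.5% of the Il12b UMIs. In T22 the values were 1648 against 18.8 CPM and 58.3%, and in long-term pools 1465 against 9.05 CPM and 54.8%. An Il12b UMI was found in 95.3% of these cells in T127, 51.9% in T22 and 63.5% in long-term pools. By cells the picture differed: 219 long-term, 112 T22 and 7 T127 cells with Il12b lacked both markers together, against 80, 41 and 41 that had them, and Ccr7 was in 31.8% of the long-term, 34.6% of the T22 and 89.6% of the T127 cells with Il12b. Adgre1 was present in 38.8% of the long-term, 47.1% of the T22 and 4.17% of the T127 myeloid cells with Il12b. In the other myeloid cells it was present in 47.1%, 47.2% and 47.6%. This split was chosen after Il12b values had been seen.

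**Figure D4:**
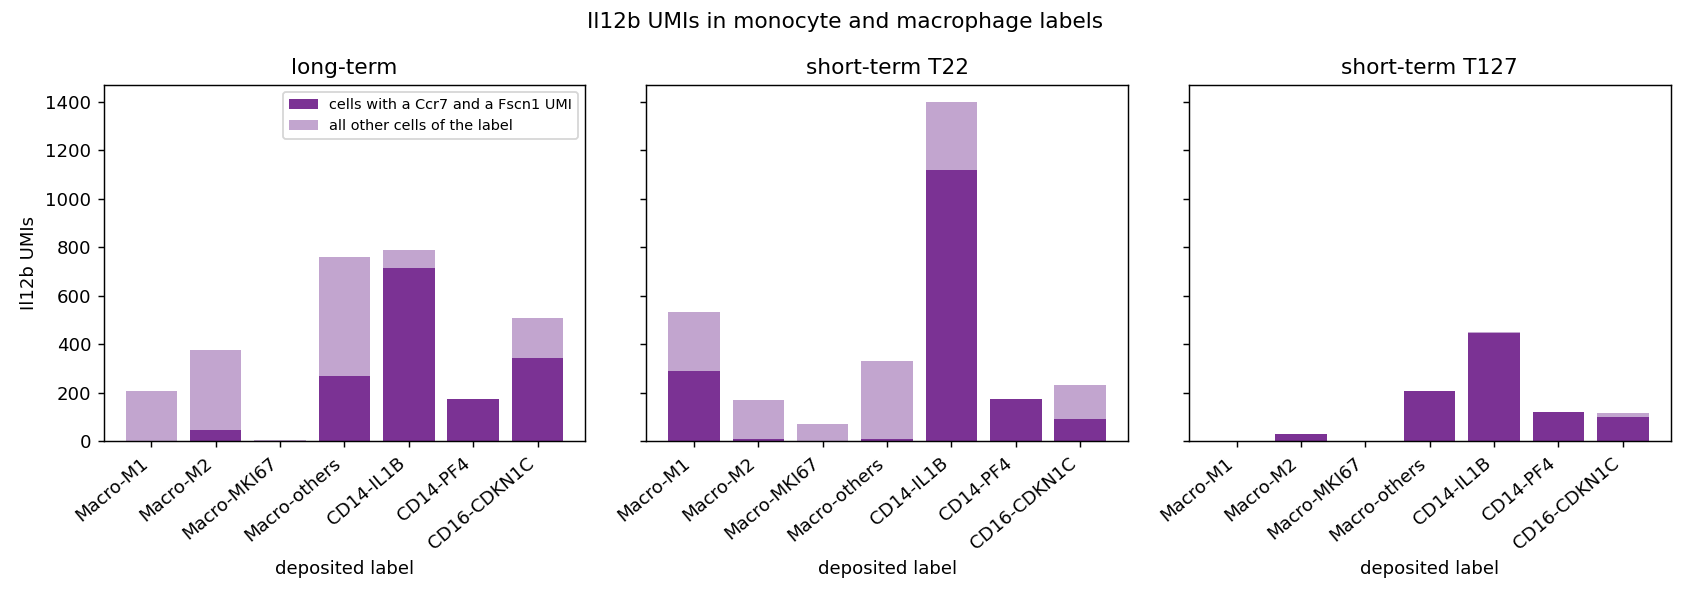
Il12b UMIs in cells of the 7 myeloid labels with both a Ccr7 and a Fscn1 UMI and in the other cells of those labels, for each experiment. In T127 the cells with both markers hold 97.5% of the UMIs, against 58.3% in T22 and 54.8% in long-term pools.

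The same cells were not high in every member. Tnf was at 14.2 CPM in long-term cells with both Ccr7 and Fscn1 against 61.8 in the other cells, but at 80.4 against 110 in T22 and 49 against 53.7 in T127. Osm was at 52.9 CPM against 110 in long-term pools, 39.7 against 66 in T22 and 230 against 332 in T127. Ebi3 was higher in these cells, at 84.1 CPM against 43, 59.1 against 33 and 164 against 36.7 in the same order. Il6 was close in long-term pools, 5.67 CPM against 5.59, and higher in these cells in T22, 15.5 against 2.12 on 16 UMIs in 4 cells, and in T127, 27 against 6.11 on 11 UMIs in 8 cells. Il23a was at 15.5 CPM against 1.36 in T22, on 16 UMIs in 3 cells, at 3.78 against 2.89 in long-term pools and without a UMI in these cells in T127. Il12a, the partner of Il12b in interleukin-12, had no UMI in these cells in any experiment.

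Il12a lay in other cells. In long-term pools B.cells had 20 of its 46 UMIs, a level of 25.3 CPM [15.5 to 39.1], in 18 of 309 cells. In T127 plasmacytoid dendritic cells (pDC) had 18.5, 26.4, 38.1 and 6.3 CPM in the 4 pools, with 22 UMIs in 16 of 136 cells, and pDC held 13 of the 21 T22 UMIs. A further 19 T127 UMIs were in Macro-M2, 18 of them in a single cell. Malignant labels held 14 of the 46 long-term UMIs and 20 of the 65 T127 UMIs, 30.4% and 30.8%, under their 45.8% and 84.1% of all UMIs, and none of the T22 UMIs. No cell in any experiment had a UMI of both Il12a and Il12b, among 42 and 308 long-term cells with each, 13 and 159 in T22 and 42 and 49 in T127. Il12a was detected too rarely for this to bear on cells that make the pair at a low level.

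Il23a, the other partner of Il12b, was sparse and spread over myeloid and malignant cells. Long-term levels were 7.20 CPM in CD14-IL1B with pools from 0 to 14.7, 3.90 in Macro-M2 with pools from 1.52 to 9.18, 3.83 in Macro-M1 and 3.48 in Malign_3 with pools from 1.27 to 7.81, and these overlapped. CD4_Treg-FOXP3 ranked above them at 46 CPM through 21 UMIs in 1 cell, its only Il23a UMIs. In T22 Malign_3 had 2.7, 18, 1.74 and 6.21 CPM, a level of 6.49 that was 3.65 without 1 cell and 3.39 without pool 2. In T127 Malign_1 and Malign_0 held 31.8% and 27% of the Il23a UMIs at 1.21 and 0.893 CPM. Cells with UMIs of both Il23a and Il12b numbered 12 in long-term pools, 2 in T22 and 0 in T127, among 335, 99 and 214 cells with Il23a.

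Il27 and Ebi3, which pair as interleukin-27, differed in breadth. Il27 was near 1 UMI per positive cell (1.08 in long-term pools), with 3.32 CPM in Macro-M1, 3.00 in Macro-M2, 2.76 in Macro-others and 2.43 in CD16-CDKN1C, all overlapping. Macro-M2 had 2.83, 4.87, 1.03 and 4.54 CPM in T22 and 3.32, 3.43, 3.47 and 1.91 in T127, where it held 79.6% of the UMIs. Ebi3 was found in 17.9% of long-term cells. Its long-term level was 66.4 CPM in CD14-IL1B with pools from 50.5 to 101 and a UMI in 52.9% of cells, 46.2 in Macro-M2 with pools from 39.1 to 52.7, 41.3 in Macro-others and 28.8 in Macro-M1 with pools from 25 to 36.4. Macro-M2 lay above Macro-M1, the reverse of the order of their Il27 levels, which overlapped.

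Ebi3 was also high in regulatory T cells. CD4_Treg-FOXP3 had 101 CPM [73.7 to 134] in long-term pools, with pools from 48.6 to 301, and 106, 112, 113 and 85.9 CPM in the T127 pools. Il12a, which joins Ebi3 in interleukin-35, had no UMI in these 113 and 149 cells. In malignant cells Ebi3 was nearly absent in T127, with 0.0531 CPM in Malign_0 and 0.0489 in Malign_1, and at 1.22 CPM in T22 Malign_2. Cells with UMIs of both Il27 and Ebi3 numbered 133 in long-term pools, 37 in T22 and 15 in T127. Ebi3 was found in 36.2% of the long-term cells with Il27 and in 17.7% of those without, and after thinning the shares were 17.5% and 7.35%. These shares join labels with and without both genes, and within labels the gap was smaller or reversed in 6 of 7: in long-term pools Ebi3 was found in 25% of the CD16-CDKN1C cells with Il27 and 19.7% of those without, in 33% and 31.6% in Macro-others, in 25% and 27.4% in Macro-M1, and in 49.5% and 35.5% in Macro-M2, where thinned shares were 22.9% and 13.4%. Macro-MKI67 had a wider gap, 66.7% and 38.3%, on 15 cells with Il27. In T22 the shares were 30.1% and 11.4%, but 3.57% and 4.39% after thinning, when 1 cell with both was left.

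The receptors of these cytokines had distributions of their own. In long-term pools Il6st was highest in i_CAF at 207 CPM with pools from 174 to 239, followed by my_CAF at 179 and Endo.cells at 120. Osmr had the same order, with 84.8 CPM in i_CAF, 63.3 in my_CAF and 53.5 in Endo.cells, whereas its ligand Osm was at 0.877 in Endo.cells. Tnfrsf1a was highest in my_CAF with 286 CPM, Endo.cells with 247 and i_CAF with 190. Tnfrsf1b was highest in CD4_Treg-FOXP3, with 83.2 CPM in long-term pools and 470 in T127.

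Interleukin-12 and interleukin-23 receptors lay in lymphoid cells. Il12rb2 was highest in NK.cells, with 19.2 CPM in long-term pools, 38.5 in T22 and 81.9 in T127. Il23r was highest in Tgd at 57.4 CPM in long-term pools and 93 in T22, with pools from 80.8 to 100.3 there. Il10ra lay in the myeloid labels that also held Il10, with 43 CPM in Macro-M1, 41.5 in CD16-CDKN1C and 39.5 in Macro-M2. Il6ra was in myeloid labels, with 62.9 CPM in CD16-CDKN1C and 57.5 in Macro-M2, and also in Malign_1 with 49.6.

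Short-term T22 and T127 pools were set side by side within 11 labels that had at least 50 cells in each model, the 4 malignant labels being joined because each belongs to only 1 model. A gene entered with at least 20 UMIs in the label over both models, and was counted as different at 2-fold or more. The members entered 58 times and were 2-fold or more apart 34 times, against 23.8% of 118762 gene and label pairs over all genes. A pair that reaches 20 UMIs through 1 model alone had to differ, as with Il6 in CD4_Tcm-TCF7 with 27 UMIs in T22 and 0 in T127 and Il12a in malignant cells with 0 and 20, so the 34 are no measure of how far the members stand apart. With at least 100 UMIs the count was 19 of 37, against 18.9% of 82750 pairs over all genes, and at a fold of 4 it was 18 of 58, against 9.89%. Without an overlap of the pool values the count was 19, against 17.6% of all pairs. The ratios compare these pools of mixed vehicle and olaparib tumors, with intervals for counting error only.

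By label, 3 of the 4 members that entered in CD14-IL1B were 2-fold or more apart, Il12b higher in T22 and Tnf and Osm higher in T127, against 14.7% of all genes. In CD14-PF4 the count was 2 of 4 (Tnf higher in T22 and Osm higher in T127), against 18.1%, and in CD16-CDKN1C 4 of 8 (Il6, Il12b, Il23a and Osm, higher in T127), against 26.2%. In Macro-M2 it was 5 of 10 (Tnf and Il12b higher in T22, Il12a, Osm and Lif higher in T127), against 19.5%. In Macro-MKI67 it was 4 of 6 (Tnf and Il12b higher in T22, Il23a and Osm higher in T127), against 18.0%. In Macro-others it was 7 of 8 (Tnf, Il10 and Il27 higher in T22, Il6, Il12b, Osm and Lif higher in T127), against 23.0%. Outside myeloid labels the counts were 3 of 6 in CD4_Tcm-TCF7 (Il6 higher in T22, Il10 and Ebi3 in T127) against 23.8%, 1 of 3 in NK.cells (Osm higher in T127) against 18.1%, 1 of 2 in i_CAF (Il6 higher in T127) against 19.2%, 1 of 1 in Endo.cells (Il6 higher in T22) against 10.0% and 3 of 6 in malignant cells (Ebi3 higher in T22, Il12a and Osm in T127) against 51.1%. The malignant count was thus near its background. The median log2 ratio of T22 over T127, taken after adding 1 CPM to each level, ran from -0.20 to 0.08 over all genes in the 11 labels. The ratios given elsewhere have no such addition. Over the members the median was -1.08 in CD16-CDKN1C, -0.97 in Macro-others, -0.67 in CD14-IL1B, -0.80 in i_CAF, -0.24 in Macro-MKI67, -0.19 in NK.cells and -0.12 in Macro-M2. It was 1.38 in Endo.cells, 0.57 in CD14-PF4, 0.46 in malignant cells and 0.15 in CD4_Tcm-TCF7.

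Osm pointed the same way across labels: it was 2-fold or more apart in 8 of 9 labels with T127 higher in each, against 10.7% of pairs over all genes with T127 higher by 2-fold. The T127 level was 4.36 times [4.06 to 4.69] the T22 level in Macro-M2, 7.20 times [6.39 to 8.10] in CD16-CDKN1C, 4.43 times in Macro-MKI67, 8.94 times [6.47 to 12.6] in CD14-IL1B, 2.70 times in CD14-PF4 and 2.32 times [2.10 to 2.56] in Macro-others. In these 6 labels the pools of the models did not overlap: Macro-others, for example, had 100.5, 97.3, 95.8 and 85.8 CPM in T22 and 218, 205, 225 and 228 in T127. In CD16-CDKN1C the median depth was 2407 UMIs in T22 and 4922 in T127, and 4 of 5 immediate early genes and 3 of 5 feedback and decay genes were also 2-fold higher in T127, against 26.2% of all genes there either way; their part in the Osm difference was not tested. In malignant cells Osm was low, 0.227 CPM in T22 on 12 UMIs and 0.563 in T127 on 99, 2.48 times [1.36 to 4.97] as high in T127 with overlapping pools. CD4_Tcm-TCF7 had a ratio of 1.03. In NK.cells T127 was 2.19 times as high with pools apart, a T22 over T127 ratio of 0.457 that kept its direction but passed under 2-fold without the top cell of each model (0.535) and without T127 pool 4 (0.612).

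Tnf moved the other way in macrophages. T22 was 3.27 times [2.99 to 3.57] as high as T127 in Macro-M2, where the T127 pools had 45.7, 55.4, 60.6 and 48.4 CPM, and 3.55 times [3.00 to 4.24] as high in Macro-others, where they had 46.8, 73.2, 64.1 and 31.4. In both labels the T127 pools lay under those of T22. Tnf in CD16-CDKN1C was close in both models, with 52.5, 46.2, 55.8 and 47.8 CPM in T22 and 43.3, 54.6, 80.6 and 21.9 in T127 and a ratio of 0.949. In Macro-MKI67 the ratio was 2.30 with overlapping pools, 1.99 without T127 pool 2 and 3.85 without T127 pool 3. The T127-high value in CD14-IL1B, a T22 over T127 ratio of 0.488, was 0.776 without the top cell of each model, 0.742 without T127 pool 3, 0.555 and 0.602 without T22 pools 1 and 2 and 0.315 without T22 pool 3.

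**Figure D5:**
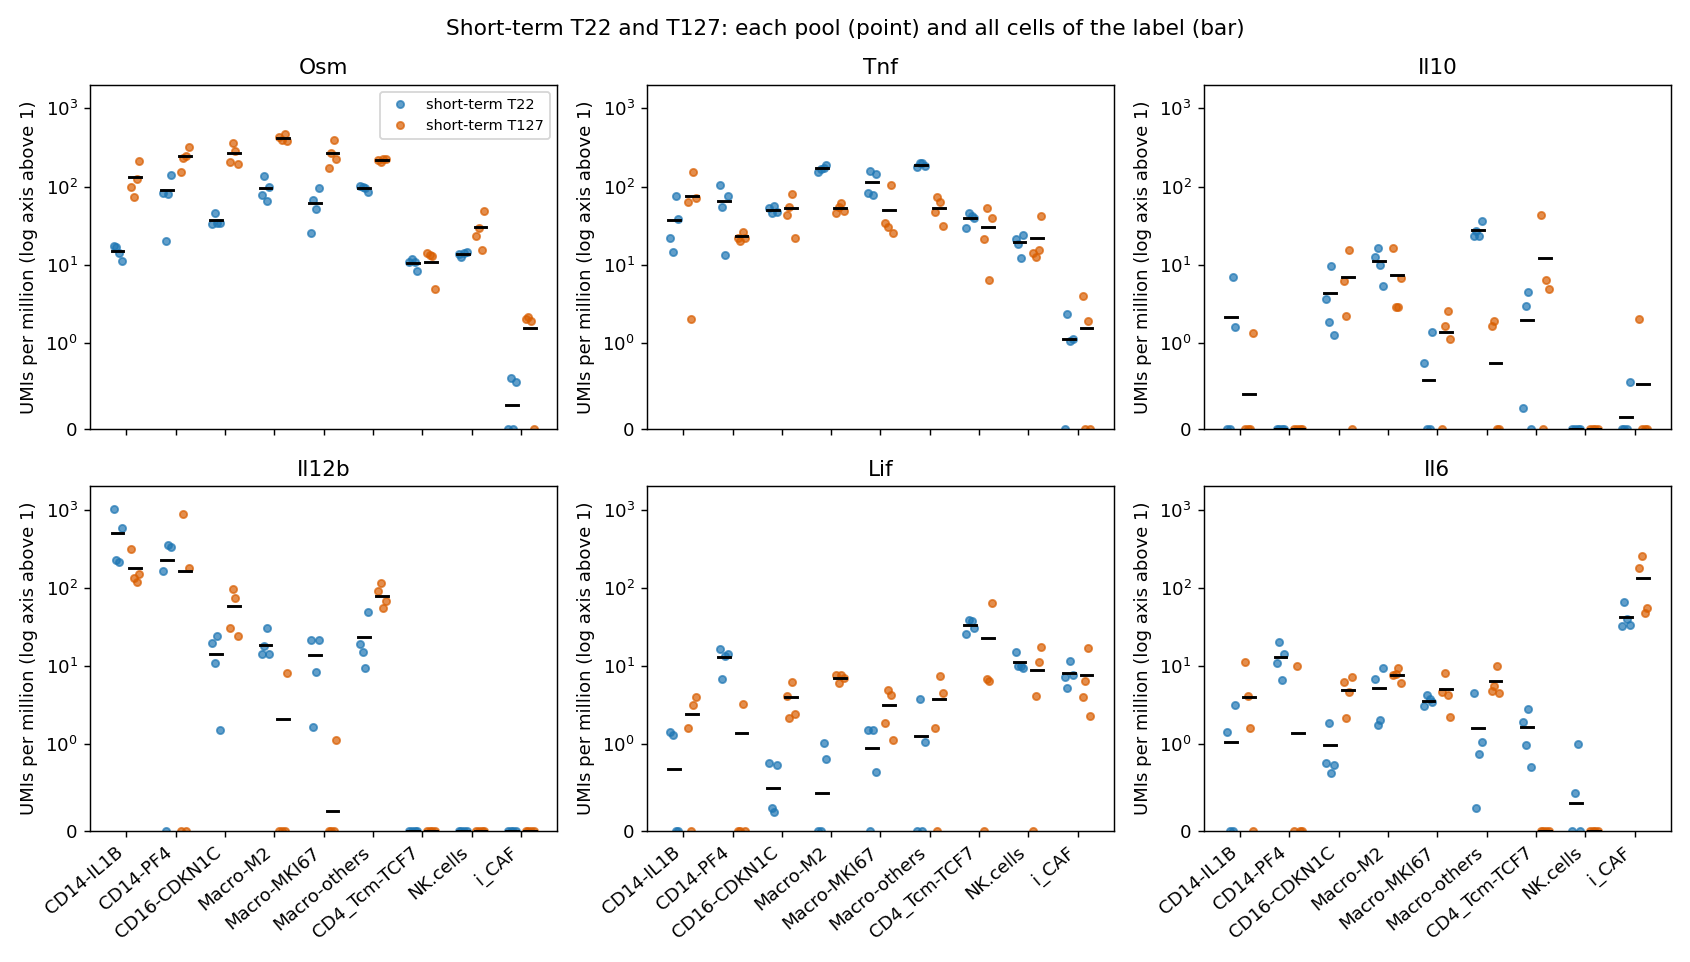
Levels of Osm, Tnf, Il10, Il12b, Lif and Il6 (CPM, axis linear near 0 and logarithmic above) in each short-term T22 and T127 pool, by label. Osm lies higher in T127 in the myeloid labels (Macro-M2 416 against 95.4), Tnf higher in T22 in Macro-M2 (171 against 52.3) and Macro-others (190 against 53.5), and Il10 in Macro-others at 27.7 in T22 against 0.765 in T127.

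Il10 in Macro-others was 36.2 times [9.96 to 300] as high in T22, on 393 UMIs against 2 in T127, where the pools had 1.62, 1.88, 0 and 0 CPM, and 55.3 or 57.7 times without T127 pool 1 or 2. In Macro-M2 the Il10 ratio was 1.50 [1.13 to 2.00] with overlapping pools, so the models differed by label. Il10 in CD4_Tcm-TCF7 was 6.31 times [2.51 to 14.0] as high in T127 on 8 UMIs, with pools of 42.6, 0, 6.35 and 4.9 CPM that overlapped those of T22, and T22 over T127 was 0.158 in all, 0.496 without T127 pool 1 and 0.0867 without T22 pool 3.

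Markers of other cells moved with the Macro-others label. The summed mature dendritic cells list was at 44 CPM there in T22 and 692 in T127, the conventional dendritic cells 2 list at 17.3 and 288, and the malignant list at 71.4 and 823, while the monocytes and macrophages list was alike at 3587 and 3456. The part of this makeup in the Il10, Tnf and Osm ratios of Macro-others was not tested, beyond leaving out the cells with both Ccr7 and Fscn1. Il12b there was 3.39 times [2.84 to 4.04] as high in T127, with 207 of the 208 T127 UMIs in 17 cells with both markers. T22 over T127 was 0.295, or 0.183 without T22 pool 4. Without those cells, and so with nearly all T127 UMIs left out, the ratio turned round, to 56.2 times as high in T22. Likewise Il12b in CD16-CDKN1C was 4.09 times [3.25 to 5.12] as high in T127 and had a T22 over T127 ratio of 0.948 without them.

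Il12b was higher in T22 in other labels, 60.4 times in Macro-MKI67 on 73 UMIs against 1 with an interval from 10.5 to 2420, 8.91 times [6.02 to 13.6] in Macro-M2, where the T22 pools had 14.1, 18.1, 30.8 and 14.5 CPM and 1 cell held all 30 T127 UMIs, and 2.76 times [2.48 to 3.08] in CD14-IL1B, or 1.83 times without T22 pool 1 and 84.4 times without the cells with Ccr7 and Fscn1. That last ratio rests on few T127 UMIs, since cells with both markers held nearly all of those in the myeloid labels. The summed conventional dendritic cells 1 list in CD14-IL1B was at 730 CPM in T22 and 380 in T127, and the conventional dendritic cells 2 list at 32.2 and 290. The part of these cells in the ratio was not tested.

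Lif in Macro-M2 was 16.2 times [6.12 to 60.5] as high in T127, on 101 UMIs against 4, with 7.76, 6.07, 7.57 and 7.11 CPM in the T127 pools and no overlap. T22 over T127 was 0.0619, or 0.0394 without T22 pool 3. In Macro-others Lif was 3.01 times as high in T127 on 10 UMIs against 18, and T22 over T127 was 0.577 without T127 pool 3. Il6 was 3.15 times [2.66 to 3.73] as high in T127 i_CAF with overlapping pools, and 4.01 times [2.01 to 7.84] in Macro-others and 5.02 times [2.04 to 11.8] in CD16-CDKN1C with pools apart, on 17 and 10 T127 UMIs. In Macro-others T22 over T127 was 0.249 for Il6, and 0.114 without T22 pool 1. In endothelial cells Il6 was 2.76 times as high in T22, but 1.37 times without the top cell of each model and 1.35 times without T22 pool 1. CD16-CDKN1C cells also differed in depth, with a median of 2407 UMIs in T22 and 4922 in T127, and 4 of 5 immediate early genes were 2-fold higher there in T127, among them Fos at 738 against 2011 CPM. In Macro-M2 and Macro-others 0 of those 5 genes were 2-fold apart, which is near the 19.5% and 23.0% of all genes there.

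Ebi3 was 1.03 times [0.898 to 1.19] as high in T22 Macro-M2, with 28.3, 42.1, 43.1 and 38 CPM in the T22 pools and 34.1, 39.6, 36.9 and 34.4 in the T127 pools, and it was 2-fold or more apart in 2 of 8 labels, near the 23.8% of all gene and label pairs. In CD4_Tcm-TCF7 1 cell held 7 of the 8 T127 UMIs, and the T127-high ratio of 4.12 turned round without the top cell of each model. In malignant cells it was 22.9 times [11.3 to 52.4] as high in T22, on 62 UMIs against 9, and 39.4 times without T127 pool 4. Il27 entered in 3 labels, and its ratio in Macro-others, 2.49 [0.625 to 21.6], rested on 2 T127 UMIs and ran from 1.73 without T127 pool 3 and 1.85 without pool 4 to 3.80 without pool 1, 3.96 without pool 2 and 4.79 without the top cell of each model. Il12a in Macro-M2 was 6.08 times as high in T127 on 19 UMIs against 2, and T22 was 1.56 times as high without the top cell of each model. Il23a was 5.17 times [1.97 to 12.8] as high in T127 in CD16-CDKN1C on 9 UMIs against 14, where T22 over T127 was 0.194, or 0.342 without the top cells, and its 2.28 times in Macro-MKI67 had an interval from 0.962 to 5.81. There T22 over T127 was 0.438, under 2-fold without T22 pool 2 (0.566) or pool 4 (0.607), and 0.259 without pool 3 and 0.236 without the top cells.

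Of the 12 receptors, 0 of the 8 that entered were 2-fold or more apart between models in CD14-IL1B, 2 of 10 in Macro-M2, 1 of 9 in Macro-others and 3 of 10 in CD16-CDKN1C, near or under the shares of all genes in these labels. In malignant cells 8 of 11 were, against the background of 51.1%. Il10ra, Il12rb1, Il12rb2, Il27ra, Osmr and Lifr were higher in T22, and Tnfrsf1b and Il6ra in T127. The part of free RNA or doublets from leukocytes in this count was not tested. Lifr, the partner of Il6st for Lif, was at 131 CPM in T22 and 0.131 in T127 malignant cells, a ratio of 1001 [667 to 1581]. Osmr was at 57.8 and 13.7 CPM. Il6ra went the other way, at 4.57 CPM in T22 and 61.3 in T127, 13.4 times [11.8 to 15.3] as high in T127. In CD4_Tcm-TCF7 5 of 12 were 2-fold or more apart, against 23.8% of all genes, and in i_CAF 4 of 8, against 19.2%, with Il6st at 177 CPM in T22 and 417 in T127.

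Other ligands of these families were compared in the same way. Clcf1, a ligand of the Il6 family, was at 0.453 CPM in T22 and 160 CPM in T127 malignant cells, 353 times [237 to 552] as high in T127, and Malign_1 of long-term pools had 168 CPM with pools from 143 to 185. Ctf1, another, was at 29.3 CPM in T22 and 1.88 in T127 malignant cells. Il11, known from fibroblasts, was at 12.1 CPM in T22 and 94.5 in T127 i_CAF, where pools from 19.1 to 175 overlapped T22. Il22, a relative of Il10 known from lymphocytes at barriers, was at 90.2 CPM in T22 CD4_Tcm-TCF7 with pools from 43.5 to 147, in 1.56% of cells. It had no UMI in the 204 T127 cells with that label and so counts as 2-fold apart, but these cells had a median depth of 2803.5 UMIs against 6403 in T22, and a share of cells as small as that in T22 could go undetected among them. The same 204 cells stand behind each T127 value of CD4_Tcm-TCF7.

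The genes whose levels followed each member most closely over the 21 long-term labels with at least 50 cells are given as a description, since all labels come from the same pools and the correlations are over log2 of CPM plus 1. For Osm they were Fcgr3 with a Pearson correlation of 0.979, Gpr141 with 0.954 and Lilr4b with 0.952. For Il27 they were Tlr8 with 0.983, Gm19434 with 0.983 and Ms4a4a with 0.982, and for Ebi3 Matk with 0.947, Cd86 with 0.911 and Tmem179b with 0.901. Il12b was followed most closely by Ccl22, a chemokine of mature dendritic cells, with 0.942. The closest gene to Il6 was Dennd2a with 0.896, to Il10 BC049352 with 0.884, to Tnf Atp6v1f with 0.845, to Lif Stc2 with 0.841 and to Il23a Cstdc4 with 0.793. Il12a had too few UMIs to be included.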

How the data were processed

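The authors aligned the reads with introns included and counted them with Cell Ranger 6.0.0 to GRCm38, as the submitters' processing notes give it, filtered cells and removed Scrublet doublets, and deposited raw UMI counts per cell with a label for each cell. The organism field names Homo sapiens although the mice and the build are mouse. These deposited counts were summed per label and pool with Python 3.11.15, numpy 2.4.6, scipy 1.17.1 and pandas 2.3.3 and divided by the UMIs of the same cells (CPM), with no other normalization. Intervals are exact Poisson for levels, exact conditional binomial for ratios and cover counting error only. A share of 0 allows up to 3 counts of the total. Pool values are given for pools with at least 10 cells of the label, and labels with at least 50 cells were ranked. For thinned shares each cell was drawn down to 3000 UMIs and shallower cells were left out. Against doublets, the 5% of cells with the most UMIs in each pool were left out. That cut was set over all labels together. In T127 the median depth was 36205 UMIs in Malign_0 and 11285.5 in Macro-M2, so doublets in shallower labels could remain. The sums, ratios and intervals were tested on simulated data. The named genes are the 10 members, the listed receptors, related ligands, feedback and immediate early genes, and the 3 genes most correlated with each member that had at least 200 long-term UMIs, among genes with at least 500. Members and lists were chosen with earlier results of these data known, and leaving out the top cell, the cells with Ccr7 and Fscn1 or the cells with leukocyte UMIs was chosen after seeing the data.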

Additional observations from a re-analysis of the deposited data

Results flagged for a closer look

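Dixon's test at the 95% level was applied to the highest label of each member in each experiment, where it held at least 20 UMIs. Among these 26 groups of 4 to 8 pools, 4 held a pool far from the others. The groups were picked for their level, which 1 high pool can raise, so the usual chance rate of about 1 in 20 does not apply to them. Ebi3 in CD4_Treg-FOXP3 was at 301 CPM in long-term pool 1, on 10 UMIs in 12 cells, against 48.6 to 126 in the other pools. Il23a in CD4_Treg-FOXP3 was at 364 CPM in long-term pool 7, through 21 UMIs of 1 cell among 13, and at 0 in the others. Il12b in CD14-IL1B was at 315 CPM in T127 pool 1, on 195 UMIs in 40 cells, against 120 to 152 in the others. Il27 in Macro-M2 was lower in T127 pool 4, at 1.91 CPM on 7 UMIs in 287 cells, against 3.32 to 3.47.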

How the results depend on the processing

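No paired analysis was possible because the results come from no test and pools of the 2 models are separate captures. The standard deviation of the pools is wide where a single pool or cell is high, so levels are given here by size. Il23a in long-term CD4_Treg-FOXP3 went from 46 to 0 CPM without 1 cell, Il12b in long-term CD14-PF4 from 168 to 33.1 without pools 1 to 3 and to 319.8 with every cell weighing the same, Lif in T127 CD4_Tcm-TCF7 from 23.1 to 4.48 without pool 4, and Tnf in T127 CD14-IL1B from 76.1 to 42.2 without 1 cell. With every cell weighing the same, Osm in T127 Macro-M2 was 455 instead of 416 CPM and Tnf in T22 Macro-others 167 instead of 190. The 34 of 58 member and label pairs at 2-fold or more became 18 at a fold of 4 (9.89% of all pairs). They became 19 of 37 with at least 100 UMIs (18.9% over all genes) and 19 with pool ranges that do not overlap (17.6%). With a pool left out they were 30 to 36 of 55 to 57, and without the top 5% of cells 35 of 57. Without the top cell of each model they were 32 of 58, and without cells with Ccr7 and Fscn1 32 of 57. The share over all genes was not computed for leaving out pools or cells. The T22 over T127 ratio reversed for Ebi3 in CD4_Tcm-TCF7, from 0.242 to 1.82 without the top cells and between 0.166 and 1.50 with a pool left out (T127 pool 2 the highest), for Il12a in Macro-M2, from 0.164 to 1.56 without the top cells, and for Il12b in Macro-others, from 0.295 to 56.2 without cells with Ccr7 and Fscn1. Those cells held nearly all T127 Il12b UMIs of Macro-others, so the 56.2 rests on few T127 UMIs. With a pseudocount of 10, all 3 genes closest to Osm were kept, 2 of 3 for Tnf, Il10 and Il23a, 1 of 3 for Il12b, Il27 and Ebi3 and 0 of 3 for Il6 and Lif. Of the shares of UMIs and of cells, 18 alternatives moved by more than the margin set for them, 16 of them by thinning. That margin was the spread of the pools for shares of UMIs. For shares of cells, the only shares that were thinned, it came from the interval for counting error. The 16 moves by thinning were thus not compared with the spread of the pools. Thinning also lowered 6 of 12 counts of cells with both subunits. Il12a, Il27 and Il23a are limited by counts, and levels resting on under 20 UMIs by few cells. Mixed pools without tags leave treatment, time and mouse unread.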

Other observations

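The feedback and decay genes, not all of which limit these cytokines, were compared between short-term T22 and T127 pools in the same 11 labels. Of Socs3, Nfkbia, Nfkbiz, Tnfaip3 and Zfp36, 0 of 5 were 2-fold or more apart in Macro-M2, Macro-MKI67, Macro-others, CD14-PF4, Endo.cells and NK.cells. The shares of all genes there were 19.5%, 18.0%, 23.0%, 18.1%, 10.0% and 18.1%, so 0 of 5 is near the background. In CD16-CDKN1C 3 of 5 were, against 26.2% of all genes and all higher in T127, with Socs3 at 92.6 CPM in T22 and 314 in T127 and Nfkbia at 307 and 642. In malignant cells 4 of 5 were, in both directions: Socs3, which is induced by Il6 family signals, was at 360.4 CPM in T22 and 118 in T127, while Tnfaip3, which is induced by Tnf, was at 11.3 and 70.7. The malignant background of 51.1% over all genes stands beside this count. The list had 1 of 5 in each of CD14-IL1B, CD4_Tcm-TCF7 and i_CAF, near the 14.7%, 23.8% and 19.2% of all genes there. These were Nfkbiz, Socs3 and Nfkbiz, each higher in T127.

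The immediate early list (Fos, Jun, Egr1, Atf3 and Ier2) had 4 of 5 genes apart in CD16-CDKN1C, against 26.2% of all genes, and 2 of 5 in malignant cells, against 51.1%. It had 1 of 5 in CD14-IL1B, CD4_Tcm-TCF7, Macro-MKI67 and NK.cells, against 14.7%, 23.8%, 18% and 18.1%. In the other labels it had 0 of 5, near their shares of 10.0% to 23.0% of all genes. Among the other ligands, 7 of the 9 that entered in malignant cells were apart, against the same 51.1%. Ctf1, Il22, Lta and Ltb were higher in T22, and Il11, Clcf1 and Il24 in T127. T and NK cells held 22.5% of all UMIs in T22 and 1.18% in T127, and the part of free RNA or doublets in this count was not tested. Il24, a relative of Il10, was at 0.0567 CPM in malignant cells in T22 on 3 UMIs and at 7.91 in T127, and in long-term pools it was highest in Malign_0 with 8.06 CPM and pools from 3.63 to 15.9. Lta, a lymphocyte relative of Tnf, was highest in Tgd, with 151 CPM in long-term pools and 145 in T22, and CD4_Tcm-TCF7 had 68 CPM in T22 and 16.9 in T127. Ltb, which forms a membrane complex with the product of Lta, was highest in CD4_Treg-FOXP3 of long-term pools at 1508 CPM and of T127 at 2060.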
